A study of Homo sapiens with 18 samples.

Results

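The genes that build cholesterol and fatty acids under the SREBP transcription factors were examined in mesothelioma cells treated with the TEAD inhibitor VT107. The set was a list of 36 genes taken by name from the pathway, and all 36 had a row among the 30954 genes of the H2052 count table. A match by name was found for 35, and SC4MOL was found as MSMO1, its current symbol. The list fell into a sterol arm of 18 genes from ACAT2 to DHCR7, a fatty acid arm of 12 genes from ACLY to LPIN1, and 6 genes that control SREBP or carry sterol, namely SREBF1, SREBF2, SCAP, INSIG1, INSIG2 and STARD4.

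SREBP1 and SREBP2, the products of SREBF1 and SREBF2, are made as membrane proteins of the endoplasmic reticulum and are escorted to the Golgi by SCAP when sterol is scarce. There they are cleaved, and the released part enters the nucleus, where SREBP2 mainly drives the sterol genes and SREBP1 the fatty acid genes. INSIG1 and INSIG2 hold SCAP back when sterol is plentiful, and INSIG1 is itself a target of SREBP. VT107 blocks the palmitoylation of the TEAD factors, the DNA-binding partners of the Hippo pathway co-activators YAP and TAZ.

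H2052 is a pleural mesothelioma cell line. Parental H2052 cells and NF1 mutant H2052 cells received either 1 µM VT107 or its solvent DMSO over 24 h, with 3 RNA-seq libraries in each of the 4 groups. NF1 encodes neurofibromin, which restrains RAS. According to the study's methods the mutant cells were made with lentiviral Cas9 and a guide RNA under drug selection, and the sources used here do not state whether the line was a single clone. A further 6 libraries came from H226, another mesothelioma line, with 3 libraries of each treatment at the same dose and time.

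Parental libraries held 10950284 to 13418485 counts and NF1 mutant libraries 3285363 to 5489092, so low genes were measured less precisely in the mutant. Only the names of the parental libraries begin with a date, and the depths differ, hence genotype and library set cannot be told apart in any comparison between them. NF1 itself was at 67.7, 62.4 and 33.7 CPM (counts scaled to library size) in parental DMSO libraries and 12.5, 16.8 and 17.8 in mutant DMSO libraries, lower in every mutant library. The mesothelial markers WT1 and MSLN and the keratins KRT8, KRT18 and KRT19 were present in all 12 libraries, KRT5 was at 0, and CALB2 and UPK3B had at most 8.23 and 1.46 CPM. The defining leukocyte genes CD3E, CD4 and MS4A1 had no count in any library, and 11 of the 14 leukocyte markers stayed under 1 CPM throughout. The same was so for 6 of 7 hepatocyte, 4 of 7 adipocyte and 3 of 3 endothelial markers with a row.

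Some libraries stood apart from their groups. Replicate 3 of parental H2052 had, in DMSO and in VT107 alike, at least 1.5 times the mean of the other 2 libraries for MVK, EBP and FADS2 and at most 1/1.5 of it for HMGCS1 and INSIG2. Its NF1 level was also the lowest of the parental libraries, at 33.7 CPM in DMSO and 26.1 in VT107. Replicate 1 of VT107-treated NF1 mutant cells, which had the fewest genes with a count of the 12 H2052 libraries (14025), was at least 1.5 times above the other 2 libraries for 8 of 35 members and at most 1/1.5 of them for 5. Its median deviation from its group over all genes compared was 0.93 on the log2 scale, against 0.15 to 0.56 in the other 11 libraries. Results that rest on these libraries are given with and without them.

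**Figure D1:**
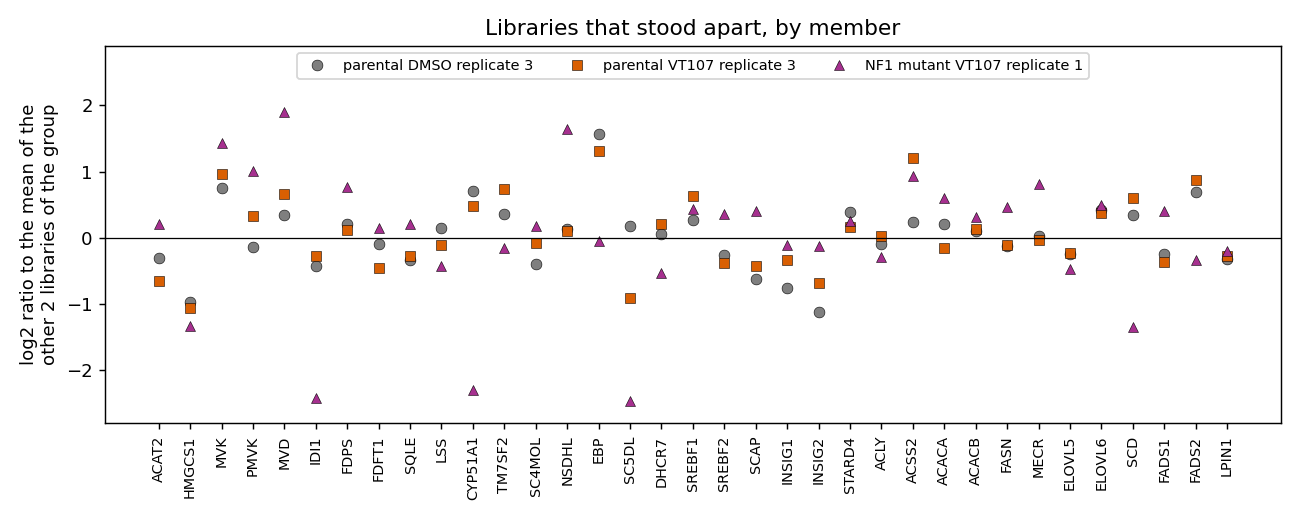
Log2 ratio of 3 libraries to the mean of the other 2 libraries of their group (y axis) for 35 members (x axis). Grey circles are parental DMSO replicate 3, orange squares parental VT107 replicate 3 and purple triangles NF1 mutant VT107 replicate 1; circles and squares lie together for HMGCS1, MVK and EBP, and the triangles reach farthest down for IDI1, CYP51A1 and SC5DL.

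The promoters of the 4 members that rose under VT107 are shown here, with that of SREBF2 as the one member whose window held the classic sterol element. Each is the 250 bases before the most upstream annotated transcript start, from RefSeq on GRCh38.p14, plus strand, 5′ to 3′. The windows lie at chr7:155297628-155297877 for INSIG1, chr10:100346983-100347232 for SCD, chr11:61815953-61816202 for FADS2, chr2:11677294-11677543 for LPIN1 and chr22:41832855-41833104 for SREBF2. Capitals mark the NF-Y box CCAAT, the TEAD core GGAATG, the E-box CACGTG and the sterol element TCACNCCAC, each searched on both strands, with 1 more base in capitals before the element where its longer form was met.
INSIG1: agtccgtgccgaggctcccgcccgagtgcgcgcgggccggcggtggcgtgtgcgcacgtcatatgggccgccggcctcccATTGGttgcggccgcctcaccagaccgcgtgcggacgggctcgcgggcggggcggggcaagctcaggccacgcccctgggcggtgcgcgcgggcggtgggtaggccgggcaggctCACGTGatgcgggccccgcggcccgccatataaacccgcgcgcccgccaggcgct
SCD: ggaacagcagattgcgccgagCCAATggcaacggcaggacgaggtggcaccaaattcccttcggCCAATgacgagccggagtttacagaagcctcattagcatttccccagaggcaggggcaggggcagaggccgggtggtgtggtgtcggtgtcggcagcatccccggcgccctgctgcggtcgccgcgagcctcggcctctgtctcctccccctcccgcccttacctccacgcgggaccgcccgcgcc
FADS2: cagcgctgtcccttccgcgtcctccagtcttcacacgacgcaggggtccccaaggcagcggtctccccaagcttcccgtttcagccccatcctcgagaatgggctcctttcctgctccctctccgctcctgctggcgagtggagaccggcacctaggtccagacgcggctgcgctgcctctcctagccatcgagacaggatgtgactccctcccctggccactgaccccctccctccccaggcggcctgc
LPIN1: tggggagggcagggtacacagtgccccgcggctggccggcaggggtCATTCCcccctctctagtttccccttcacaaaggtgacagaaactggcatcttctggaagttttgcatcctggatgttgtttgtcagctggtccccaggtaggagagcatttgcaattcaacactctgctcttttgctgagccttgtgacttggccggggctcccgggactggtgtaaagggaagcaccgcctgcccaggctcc
SREBF2: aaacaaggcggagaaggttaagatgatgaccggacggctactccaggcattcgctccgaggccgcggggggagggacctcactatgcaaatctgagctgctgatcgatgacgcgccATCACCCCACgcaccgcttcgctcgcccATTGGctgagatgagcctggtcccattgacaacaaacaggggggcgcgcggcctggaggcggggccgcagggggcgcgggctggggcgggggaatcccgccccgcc

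The INSIG1 window held CCAAT on the minus strand and the E-box, that of SCD held CCAAT at 2 places, that of LPIN1 held the TEAD core on the minus strand, and this FADS2 window held none of the letters searched. The other of the 2 FADS2 windows, not shown here, held the TEAD core. SREBF2 held the sterol element, in its longer form, and CCAAT on the minus strand. Windows were found for 32 of 36 members, 46 windows in all. CCAAT stood in 26 of them (56.5%, against 32% of 35116 windows of all genes), GGAATG in 6 (13%, against 11.9%), CACGTG in 5 (10.9%, against 6.34%) and TCACNCCAC in 1 (2.17%, against 0.883%). The longer form was in 0.0342% of all windows. By arm, 13 of 15 sterol genes, 3 of 6 regulators and 6 of 11 fatty acid genes had CCAAT in at least 1 window. NF-Y is a known partner of SREBP at sterol promoters, and a match here describes letters and no binding.

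The first comparison asked how the pathway responded to TEAD inhibition in parental H2052 cells. INSIG1, SCD, FADS2 and LPIN1 rose under VT107, and no member fell, in the fit that kept the replicate number as a block. The fit without the block was the main one. Only in this comparison were libraries of the same number taken as paired, their deviations correlating at 0.613, 0.488 and 0.795. Replicates 1 and 2 also correlated across numbers (0.517 and 0.607), and only replicate 3 separated. The blocked fit called 4 of 36 members and 215 of 12891 genes (1.67%). Without the block, edgeR called 0 of 36 members and 0 of 12891 genes (0%), with 4 members and 474 genes at an unadjusted p under 0.05, while DESeq2 called 30 genes and voomWithQualityWeights 18, with INSIG1 the one member in each. None of the 18 sterol genes passed the test in either edgeR fit, although 14 estimates lay above 0.

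INSIG1 (chr7:155089486-155101945, hg19), the retention factor for SCAP, was at 12.4, 14.6 and 7.96 CPM in DMSO and 28.1, 27.0 and 21.8 CPM in VT107. All VT107 libraries lay above all DMSO libraries, and replicate 3 was the lowest of each group. The log2 fold change was 1.18 ± 0.15 (SE; edgeR with the block, adjusted p = 0.00834). SCD (chr10:102106877-102124591, hg19), which places the first double bond in saturated fatty acids, was at 112, 123 and 149 CPM in DMSO and 197, 195 and 296 CPM in VT107. Again the groups did not overlap, with replicate 3 highest in each. Its log2 fold change was 0.84 ± 0.11 (SE; edgeR with the block, adjusted p = 0.00834).

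FADS2 (chr11:61583728-61634826, hg19), the desaturase that opens the path to long polyunsaturated fatty acids, was at 26.3, 27.6 and 43.4 CPM in DMSO and 39.8, 36.1 and 69.7 CPM in VT107. The groups overlapped, since DMSO replicate 3 exceeded VT107 replicates 1 and 2, while within each replicate number the VT107 library was higher. The log2 fold change was 0.57 ± 0.11 (SE; edgeR with the block, adjusted p = 0.0368). LPIN1 (chr2:11817721-11967535, hg19), a phosphatidate phosphatase of glycerolipid synthesis, was at 93.1, 93.2 and 74.5 CPM in DMSO and 141, 135 and 114 CPM in VT107. Every VT107 library lay above every DMSO library, with a log2 fold change of 0.59 ± 0.10 (SE; edgeR with the block, adjusted p = 0.0238). Both FADS2 and LPIN1 overlap genes annotated on the other strand, FADS2 with FADS1.

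The calls depended on which replicate number was present. With the block kept and both libraries of 1 number left out, 1 member was called without replicate 1, 8 without replicate 2 and 0 without replicate 3. The number of all genes called was likewise highest without replicate 2 and lowest without replicate 3, as given below. The counts are therefore not read as a result about the members. Of the 8 members, 7 rose and ACAT2, a thiolase, fell by 0.38 on the log2 scale (edgeR adjusted p = 0.0263), with its groups overlapping. INSIG1 was the member called without replicate 1 (log2 fold change 1.17, edgeR adjusted p = 0.0482). Without replicate 3 and without the block, INSIG1 and SCD were called at 1.06 and 0.78 (edgeR adjusted p = 0.0315 and 0.0355).

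**Figure D2:**
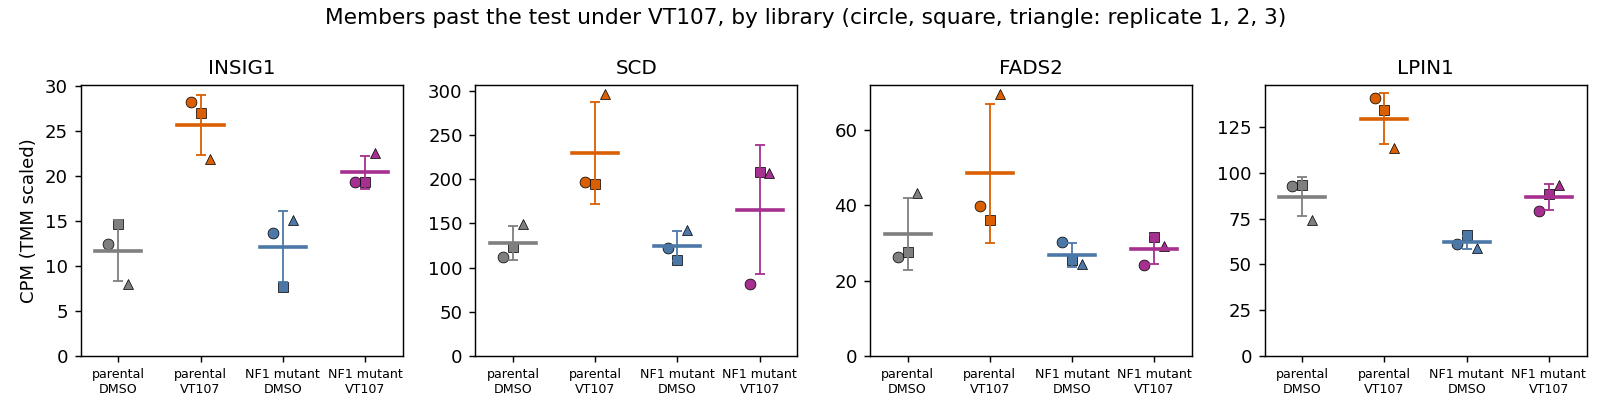
Level of INSIG1, SCD, FADS2 and LPIN1 in TMM-scaled CPM (y axis, from 0) in the 4 H2052 groups (x axis); points are libraries with the symbol giving the replicate number, lines are means and bars are SD (n = 3). In parental cells the VT107 points of INSIG1, SCD and LPIN1 stand clear of the DMSO points, and the circle of NF1 mutant VT107 replicate 1 is the low point of SCD at 81.1.

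The other regulators did not pass the test. SREBF2 was at 34.6, 39.3 and 30.9 CPM in DMSO and 44.9, 44.3 and 34.1 in VT107, a log2 fold change of 0.25 ± 0.11 with the block. SREBF1 was at 50.2, 52.9 and 61.9 CPM against 58.3, 47.1 and 81.5 (0.17 ± 0.12). The groups overlapped for both SREBP genes. SCAP was at 73.6, 72.2 and 47.3 CPM against 74.5, 60.6 and 50.2, and INSIG2, the other retention factor, at 5.44, 6.19 and 2.68 against 5.81, 5.73 and 3.61. They overlapped too, at -0.03 ± 0.11 and 0.13 ± 0.24. STARD4, a carrier of free sterol, was at 4.97 to 10.2 CPM in DMSO and 8.79 to 11.6 in VT107.

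In the sterol arm the median log2 fold change with the block was 0.23, from -0.22 for ACAT2 to 0.68 for HSD17B7, beside a median of 0.0035 over all genes tested. ACAT2, which makes the acetoacetyl-CoA that feeds the mevalonate pathway, was at 235, 224 and 186 CPM in DMSO and 189, 233 and 134 in VT107, overlapping. HSD17B7, a ketoreductase of C4 demethylation, had only 8 to 49 counts in parental libraries and was at 1.84, 1.37 and 0.716 CPM against 3.47, 2.42 and 0.650. SC4MOL and TM7SF2 came nearest to the threshold. SC4MOL, the C4 methyl oxidase, was at 27.4, 23.8 and 19.5 CPM in DMSO and 32.8, 35.8 and 32.5 in VT107, without overlap (0.54 ± 0.13, edgeR adjusted p = 0.0769). TM7SF2, a sterol reductase, was at 9.44, 7.20 and 10.6 CPM against 12.3, 10.7 and 19.2, just clear of each other (0.62 ± 0.17, edgeR adjusted p = 0.105).

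All VT107 libraries exceeded all DMSO libraries for 9 of 36 members, and the reverse held for 0. Over all genes tested, 4.44% were higher and 6.05% lower in this way. The 9 were LSS, TM7SF2, SC4MOL and DHCR7 of the sterol arm, INSIG1, and SCD, LPIN1, ACACB and FASN of the fatty acid arm. FASN, the multienzyme that builds palmitate, was at 200.3, 201 and 184 CPM in DMSO and 224, 212 and 201 in VT107, a small difference that did not pass (0.14 ± 0.10 with the block).

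The median of the fatty acid arm was 0.16 with the block, from -0.09 for ELOVL5 to 0.84 for SCD. ELOVL5, an elongase of polyunsaturated chains, was at 57.7, 48.6 and 44.6 CPM in DMSO and 48.3, 49.7 and 41.6 in VT107, overlapping. Of the suppliers of acetyl-CoA, ACLY, which splits citrate, was at 178 to 191 CPM in DMSO and 184 to 195 in VT107, while ACSS2, which uses acetate, was at 19.8, 21.6 and 24.3 against 21.8, 21.7 and 49.9, the high value being replicate 3. The carboxylases ACACA and ACACB, the elongase ELOVL6 and the desaturase FADS1 had estimates between -0.07 and 0.21, and none passed. MECR, of the mitochondrial fatty acid pathway, stayed at 16.7 to 22.9 CPM in the 6 parental libraries.

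As a check of the drug, the TEAD target ANKRD1 was at 146, 134 and 149.9 CPM in parental DMSO libraries and 33.6, 51.1 and 7.79 in VT107, and 7 of 8 listed TEAD targets fell in the blocked fit, where AXL did not. In mutant cells without VT107 replicate 1, 6 of 8 fell. That replicate was the lowest mutant VT107 library for every listed TEAD target but AXL, for which it was the highest. CYR61 was at 1.98, 163 and 220 CPM in mutant VT107 replicates 1, 2 and 3, IGFBP3 at 1.98, 20.3 and 14.0, and AXL at 848, 241 and 319. The summed level of the leukocyte markers also moved with the treatment, mainly through CD68, a lysosomal gene. It was 4.03 to 15.3 CPM in parental DMSO, 6.0 to 25.0 in parental VT107, 9.26 to 10.9 in mutant DMSO and 15.4 to 30.6 in mutant VT107 libraries, with the highest value in replicate 3 of the parental groups and replicate 1 of the mutant VT107 group. Its part in the members' values was not tested.

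The same question was then put to NF1 mutant H2052 cells. With all 6 libraries, edgeR called 0 of 35 members and 0 of 11605 genes (0%), with an unadjusted p under 0.05 for 4 members and 612 genes. By DESeq2 20 genes and no member were called, and voomWithQualityWeights called 147 genes and SCD. Without VT107 replicate 1, SCD and LPIN1 rose, 2 of 35 members against 198 of 12443 genes (1.59%), and no member fell. The library left out was the lowest of its group for all listed TEAD targets but AXL.

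SCD was at 122, 108 and 142 CPM in mutant DMSO libraries and 81.1, 208 and 207 CPM in VT107. Replicates 2 and 3 lay above every DMSO library and replicate 1 below all of them. The log2 fold change was 0.41 ± 0.38 with replicate 1 (edgeR adjusted p = 0.785) and 0.75 ± 0.13 without it (edgeR adjusted p = 0.00827). LPIN1 was at 61.3, 65.9 and 58.7 CPM in DMSO and 79.4, 88.6 and 93.3 in VT107, with no overlap. Its log2 fold change was 0.49 ± 0.21 with replicate 1 (edgeR adjusted p = 0.774) and 0.56 ± 0.13 without it (edgeR adjusted p = 0.045).

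INSIG1 was at 13.6, 7.66 and 15.1 CPM in mutant DMSO and 19.3, 19.3 and 22.5 in mutant VT107 libraries. These groups did not overlap either, but the estimate of 0.74 ± 0.32, or 0.78 ± 0.25 without replicate 1, did not pass (edgeR adjusted p = 0.774 and 0.161). FADS2 overlapped, at 30.4, 25.6 and 24.4 CPM against 24.1, 31.6 and 29.3.

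In the sterol arm of the mutant the largest estimate was that of MVD, the mevalonate diphosphate decarboxylase, at 10.4, 14.2 and 16.6 CPM in DMSO and 53.3, 15.8 and 12.9 in VT107. Only replicate 1 was high, and the log2 fold change went from 0.99 ± 0.56 to 0.10 ± 0.24 (SE) without it. The lowest was that of DHCR7, the last reductase of cholesterol synthesis, at 113, 112 and 98.4 CPM in DMSO and 52.7, 77.8 and 74.9 in VT107. All VT107 libraries were lower, with log2 fold changes of -0.65 ± 0.24 with replicate 1 and -0.49 ± 0.13 without it (edgeR adjusted p = 0.774 and 0.0798). TM7SF2 was at 14.7, 13.1 and 12.4 CPM against 19.0, 21.1 and 21.4, without overlap (0.66 ± 0.20 without replicate 1, edgeR adjusted p = 0.121).

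Replicate 1 was far from its group for several sterol genes. HMGCS1, the synthase ahead of mevalonate, was at 49.9, 117 and 135 CPM in mutant VT107 libraries, and IDI1, the isoprene isomerase, at 3.40, 20.9 and 15.5. Over the sterol arm the median log2 fold change was 0.11 with replicate 1 and 0.07 without it, and over the fatty acid arm 0.39 and 0.23, beside 0.022 and 0.0092 over all genes tested.

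ACSS2 had the largest estimate of the fatty acid arm with all libraries, at 22.3, 26.7 and 25.1 CPM in DMSO and 71.7, 33.4 and 41.5 in VT107. These groups did not overlap (log2 fold change 0.98 ± 0.33, or 0.60 ± 0.17 without replicate 1, edgeR adjusted p = 0.774 and 0.105). ELOVL5 had the lowest estimate, -0.13 ± 0.26, at 40.0, 49.5 and 39.7 CPM against 31.2, 48.6 and 38.0, overlapping.

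The SREBP genes and their escort did not pass the test in the mutant. SREBF1 was at 61.7, 66.7 and 73.1 CPM in DMSO and 94.1, 64.1 and 74.9 in VT107, and SREBF2 at 32.9, 32.6 and 34.1 against 45.6, 34.7 and 36.6. SCAP was at 96.2, 105 and 101 CPM against 117, 95.1 and 82.8, and INSIG2 at 4.83, 3.28 and 5.85 against 4.82, 6.69 and 3.80. Of these only SREBF2 was higher in every VT107 library, with a log2 fold change of 0.23 ± 0.23, or 0.10 ± 0.15 without replicate 1. Across 35 members, 8 were higher without overlap and 2, CYP51A1 and DHCR7, lower, against 7.6% and 8.28% of all genes tested.

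The arms were then set side by side as the mean log2 CPM of the 17 sterol and 12 fatty acid genes that reached 0.5 CPM in all 12 libraries. Since CPM is not scaled by gene length, the gap between the arms is not read as a level, and only its change between groups is described. The sterol mean was 5.15, 5.15 and 5.26 in parental DMSO libraries and 5.31, 5.38 and 5.41 in parental VT107 libraries. In NF1 mutant cells it was 5.49, 5.46 and 5.45 in DMSO and 5.38, 5.45 and 5.55 in VT107. The parental VT107 libraries thus lay above the parental DMSO libraries, the 3 mutant DMSO libraries above all 6 parental ones, and the mutant groups overlapped.

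The fatty acid mean was 5.77, 5.78 and 5.86 in parental DMSO, 6.04, 5.94 and 6.16 in parental VT107, 6.05, 6.08 and 6.05 in mutant DMSO, and 6.44, 6.28 and 6.37 in mutant VT107 libraries. VT107 libraries were higher than DMSO libraries within each genotype. The fatty acid mean minus the sterol mean was 0.62 ± 0.016 (SD, n = 3) in parental DMSO, 0.68 ± 0.10 in parental VT107, 0.59 ± 0.030 in mutant DMSO and 0.90 ± 0.14 in mutant VT107 cells. In the mutant the VT107 libraries, at 1.07, 0.83 and 0.82, all exceeded the DMSO libraries at 0.56, 0.62 and 0.59, replicate 1 being the highest. In parental cells the groups overlapped. No test was made, since the members of an arm were chosen and are not replicates. With the median gene of each arm in place of the mean, the gap was 0.52, 0.37, 0.67 and 0.88 in the same order, smaller in VT107 than in DMSO in parental cells and larger in the mutant.

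**Figure D3:**
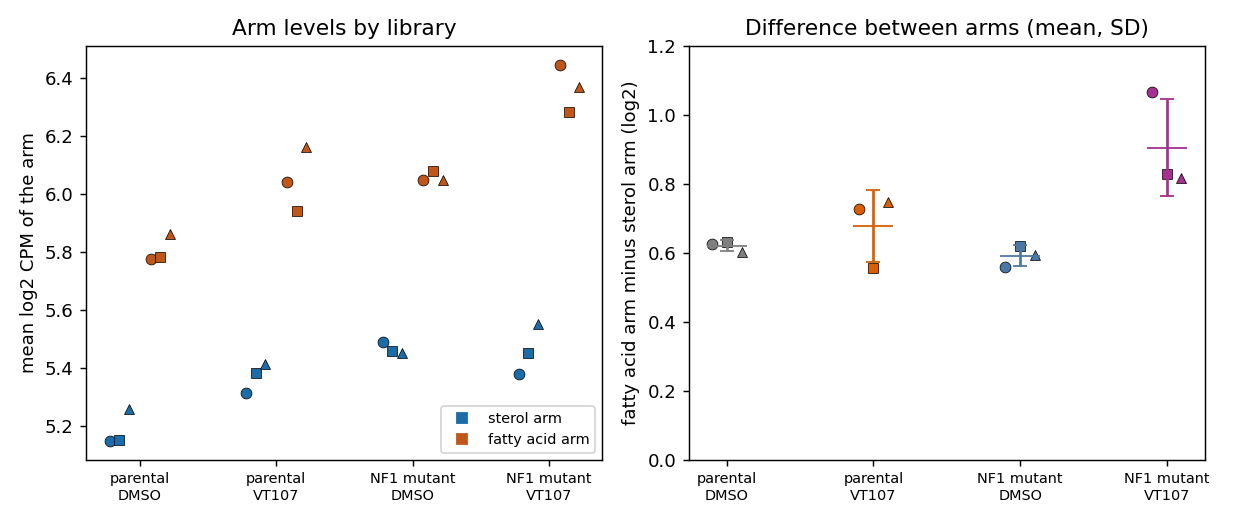
Left, mean log2 CPM (y axis) of the sterol arm (blue, 17 genes) and the fatty acid arm (orange, 12 genes) in each library of the 4 H2052 groups, the symbol giving the replicate number; right, their difference on the log2 scale with mean and SD (n = 3). The differences of mutant VT107 libraries, 0.82 to 1.07, lie above those of mutant DMSO libraries, 0.56 to 0.62.

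NF1 mutant and parental cells were next compared in DMSO, where 10 of 35 members were called, 7 up and 3 down, against 3420 of 12475 genes (27.4%). The share of members was thus near that of all genes. MECR, DHCR7, FASN, LSS, SCAP, PMVK and ACAT2 were higher in the mutant, and SC5DL, FADS1 and LPIN1 were lower. In the sterol arm 4 of 17 rose and 1 fell, in the fatty acid arm 2 of 12 rose and 2 fell, and of the 6 regulators 1 rose.

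MECR (chr1:29519385-29557454, hg19), the enoyl reductase of mitochondrial fatty acid synthesis, was at 17.5, 19.0 and 18.6 CPM in parental and 93.5, 90.6 and 91.1 CPM in mutant libraries. Spread within each group was small, and the log2 fold change of 2.34 ± 0.13 (SE; edgeR, adjusted p = 4.68e-05) ranked 5 among rises over 12475 genes. DHCR7 (chr11:71139239-71163914, hg19) was at 38.2, 48.0 and 44.7 CPM in parental and 113, 112 and 98.4 in mutant libraries, without overlap, a log2 fold change of 1.32 ± 0.14 (edgeR adjusted p = 0.000409). RP11-660L16.2, annotated over DHCR7 on the opposite strand, had a log2 fold change of 1.23 (edgeR adjusted p = 0.00934).

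FASN was at 200.3, 201 and 184 CPM in parental and 365, 430.2 and 385 in mutant libraries (log2 fold change 1.03 ± 0.12, edgeR adjusted p = 0.000524). LSS, which closes the sterol rings, was at 17.4, 18.6 and 20.04 CPM against 38.4, 30.9 and 29.2 (0.84 ± 0.17, edgeR adjusted p = 0.00787). For both, each mutant library exceeded each parental one. SCAP was at 73.6, 72.2 and 47.3 CPM in parental and 96.2, 105 and 101 in mutant libraries (0.67 ± 0.17, edgeR adjusted p = 0.0209). Its low parental value was replicate 3.

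PMVK, the phosphomevalonate kinase, was at 21.5, 25.5 and 21.4 CPM in parental and 28.1, 35.9 and 35.1 in mutant libraries (log2 fold change 0.55 ± 0.17, edgeR adjusted p = 0.0404). ACAT2 was at 235, 224 and 186 against 275, 295 and 259 CPM (0.39 ± 0.12, edgeR adjusted p = 0.0465). The groups did not overlap for either gene, and each kept its call in only 1 of the 6 fits that left out a single library. SC5DL, the sterol C5 desaturase, was lower, at 17.8, 19.1 and 20.9 CPM in parental and 12.7, 10.3 and 11.9 in mutant libraries (-0.71 ± 0.18, edgeR adjusted p = 0.0202), with its call kept in 2 of 6 such fits.

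FADS1, the desaturase that acts after FADS2, was at 279.6, 267 and 231 CPM in parental and 156, 177 and 192 in mutant libraries (log2 fold change -0.55 ± 0.13, edgeR adjusted p = 0.0139). LPIN1 was at 93.1, 93.2 and 74.5 against 61.3, 65.9 and 58.7 CPM (-0.47 ± 0.14, edgeR adjusted p = 0.0329). The groups stood apart for each gene. The LPIN1 call was kept in 1 and the FADS1 call in 4 of the 6 fits with a library left out, SCAP in 3, and MECR, DHCR7, FASN and LSS in all 6. Leaving out parental DMSO replicate 3 raised the number of called members from 10 to 17, and leaving out any 1 mutant replicate lowered it to 4 or 5. The number of all genes called changed with the library left out as well, as given below, so this is not read as a result about the members.

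**Figure D4:**
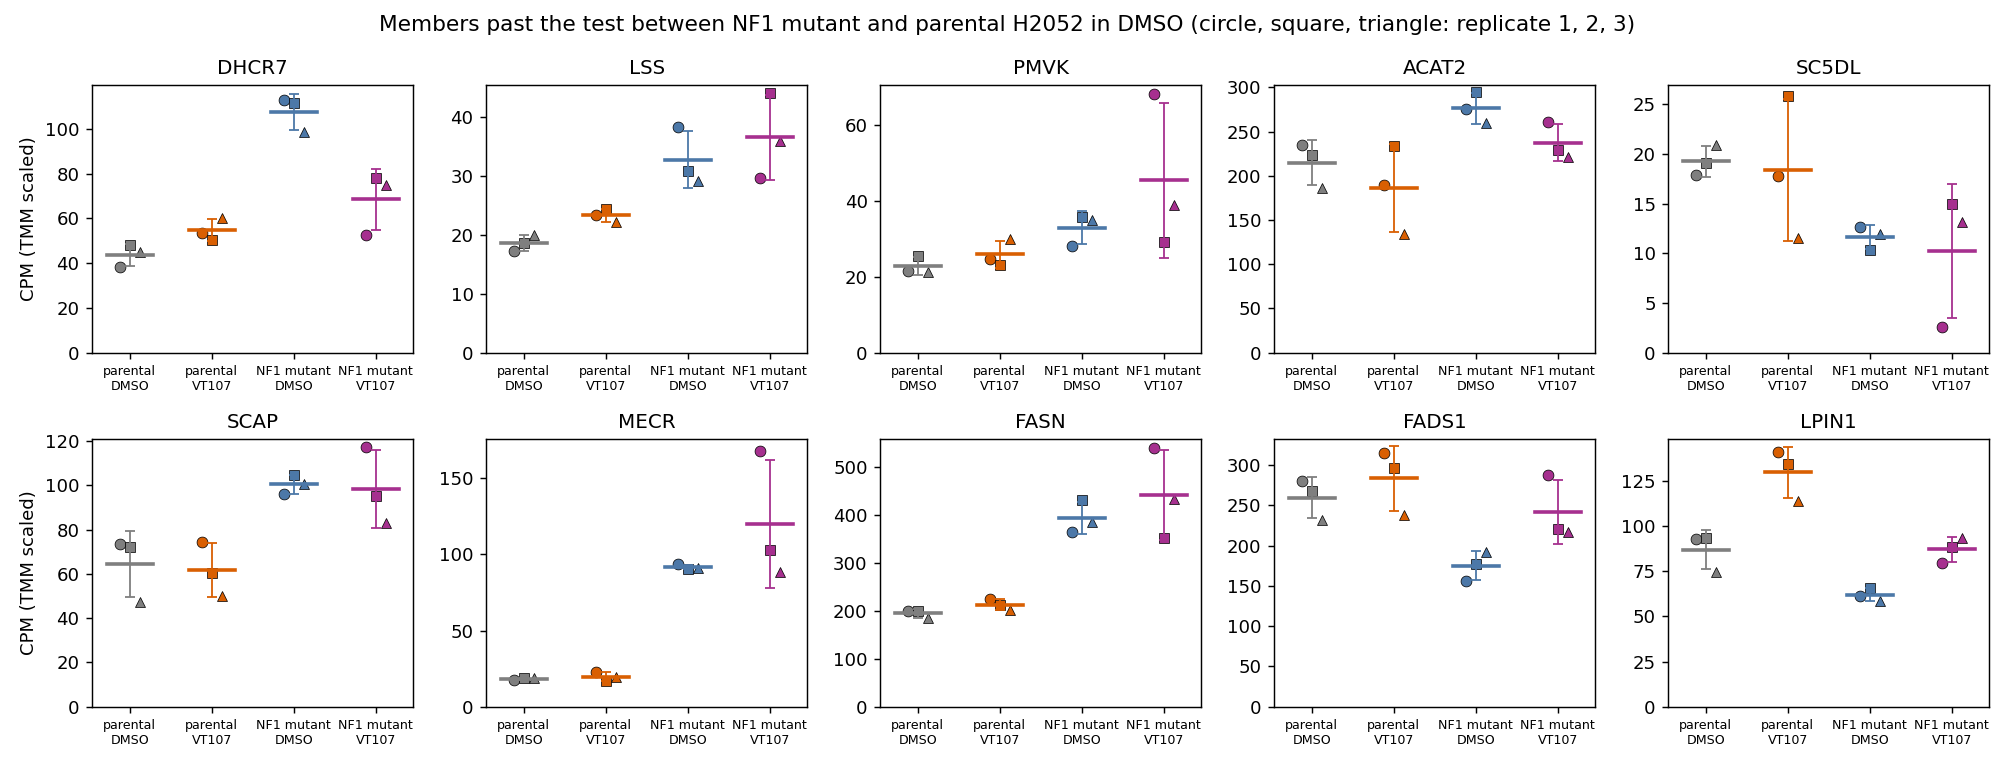
Levels in TMM-scaled CPM (y axis, from 0) of the 10 members called between NF1 mutant and parental cells in DMSO, shown in all 4 H2052 groups (x axis); points are libraries with the symbol giving the replicate number, lines are means and bars are SD (n = 3). The blue mutant DMSO points of MECR, 90.6 to 93.5, lie far above the grey parental ones, 17.5 to 19.0.

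NSDHL and FDFT1 lay just outside the threshold (edgeR adjusted p = 0.0504 and 0.0543), at log2 fold changes of 0.39 ± 0.13 and 0.35 ± 0.12. NSDHL, a C4 decarboxylase, was at 47.3, 44.6 and 50.2 CPM in parental and 64.0, 58.9 and 60.9 in mutant libraries, and FDFT1, squalene synthase, at 71.3 to 76.0 against 85.6 to 99.9. INSIG1, INSIG2, SREBF1 and SREBF2 had estimates between -0.05 and 0.31, and SCD one of -0.02. The arm medians were 0.35 for sterol and 0.17 for fatty acid genes, beside -0.01 over all genes. Mutant libraries were all higher for 14 of 35 members and all lower for 3, against 21.5% and 23% of genes. HSD17B7 was under the CPM minimum in the mutant, with 0 to 2 counts in mutant DMSO and 8 to 23 in parental DMSO libraries, and was tested in parental cells alone.

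Under VT107 with all libraries, edgeR called 0 of 35 members and 0 of 11654 genes (0%) between genotypes, with 4 members and 1945 genes at an unadjusted p under 0.05. DESeq2 called 682 genes with MECR and FASN among them, and voomWithQualityWeights 3599 genes and 10 members. Without mutant replicate 1, edgeR called 184 of 12573 genes (1.46%) and MECR alone of the members, at a log2 fold change of 2.28 ± 0.23 (edgeR adjusted p = 0.0291). MECR was at 22.9, 16.7 and 19.4 CPM in parental and 168, 103 and 88.6 in mutant libraries, far apart with or without replicate 1.

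With all libraries the extreme sterol estimates under VT107 were those of NSDHL at 1.19 ± 0.48 and CYP51A1, the lanosterol demethylase, at -0.99 ± 0.55 (SE). NSDHL was at 45.9, 48.0 and 50.2 CPM in parental and 202, 58.8 and 70.8 in mutant VT107 libraries, and CYP51A1 at 38.1, 37.4 and 52.3 against 5.95, 26.8 and 31.9. Replicate 1 was the farthest mutant library for both, and without it they were 0.43 ± 0.21 and -0.54 ± 0.26. FADS2 had the lowest fatty acid estimate, -0.79 ± 0.37, at 39.8, 36.1 and 69.7 CPM against 24.1, 31.6 and 29.3, without overlap. FASN was at 224, 212 and 201 CPM against 539.9, 351 and 433, also apart (0.89 ± 0.21 without replicate 1, edgeR adjusted p = 0.0842). Mutant libraries were all higher for 8 of 35 members and all lower for 3, against 11.2% and 14.3% of genes.

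Whether the response to VT107 differed between genotypes was tested as an interaction over all 12 libraries. edgeR called 0 of 35 members and 0 of 11432 genes (0%), with 1 member and 78 genes at an unadjusted p under 0.05, and DESeq2 and voomWithQualityWeights each called 0 genes. That member was DHCR7, with a difference of -0.98 ± 0.30 on the log2 scale (edgeR adjusted p = 1), or -0.83 ± 0.21 without mutant VT107 replicate 1 (edgeR adjusted p = 1). For INSIG1 the difference was -0.39 ± 0.42 and for FADS2 -0.50 ± 0.42. The highest estimates were 0.83 ± 0.52 for NSDHL, which was 0.06 ± 0.20 without replicate 1, and 0.50 ± 0.35 for ELOVL6. ELOVL6, an elongase of saturated chains, was at 38.4, 35.4 and 49.2 CPM in parental DMSO, 43.7, 39.8 and 54.5 in parental VT107, 54.9, 47.5 and 60.4 in mutant DMSO and 107, 60.4 and 91.6 in mutant VT107 libraries. A call in one genotype and not in the other therefore does not show that they differ.

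**Figure D5:**
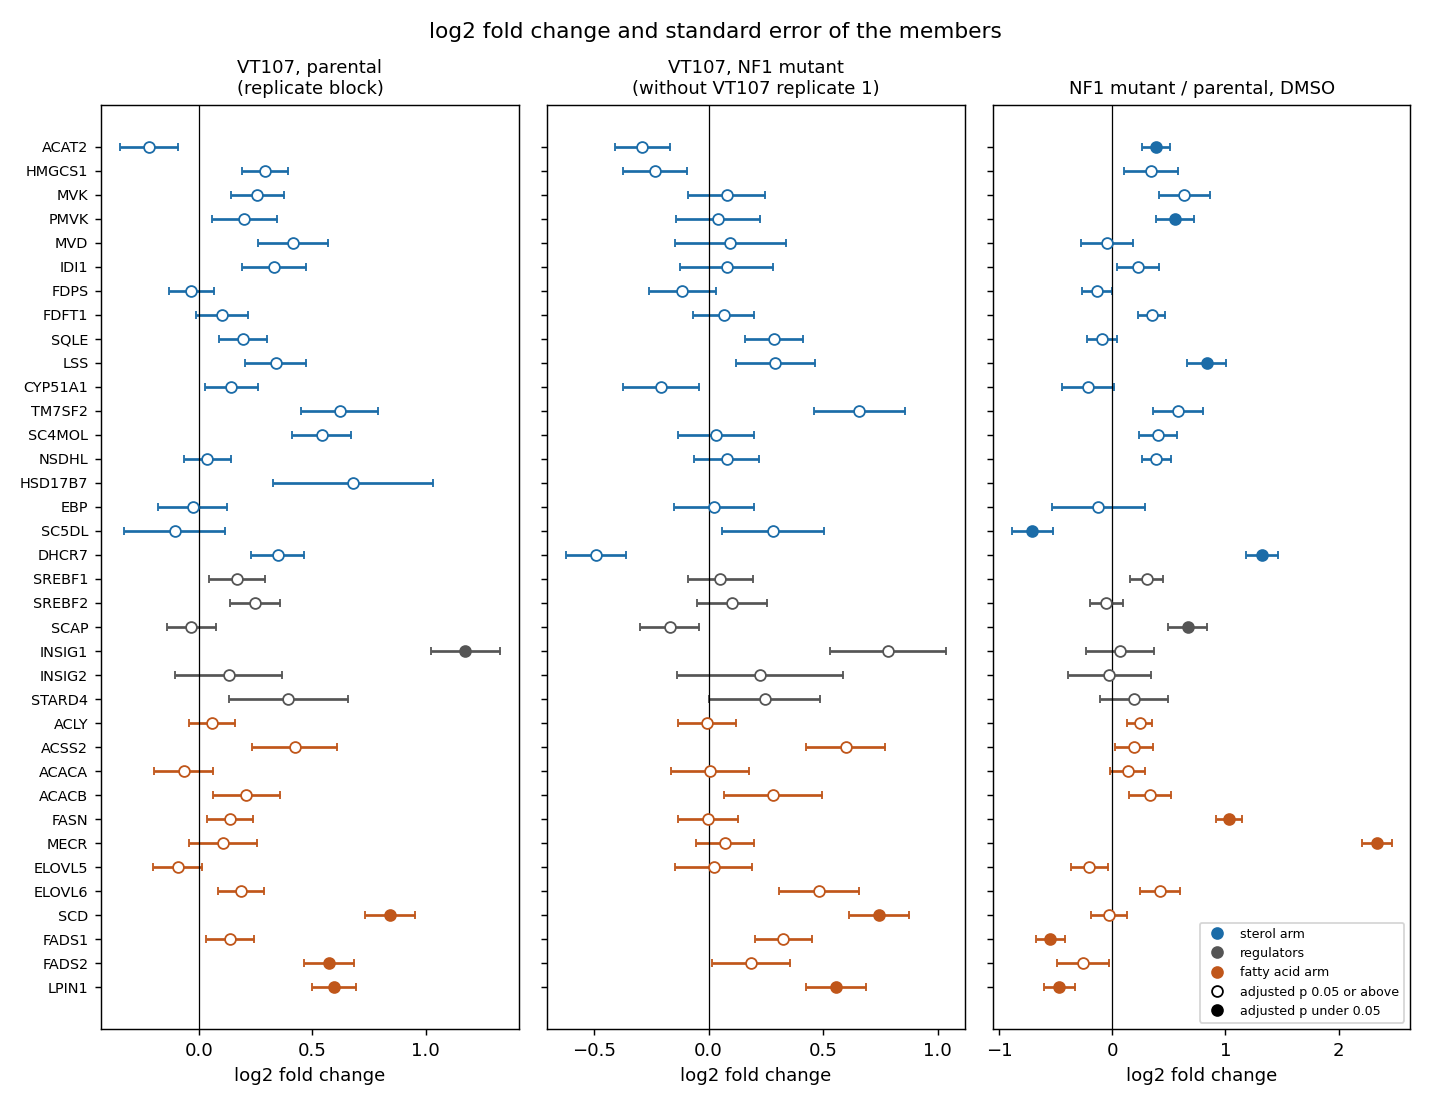
Log2 fold change with its standard error (x axis, scaled separately in each panel) for the 36 members (y axis): VT107 in parental cells with the replicate block, VT107 in NF1 mutant cells without VT107 replicate 1, and genotype in DMSO. Filled points have an adjusted p under 0.05 and colours give the arm; INSIG1 at 1.18 lies farthest right in the left panel and MECR at 2.34 in the right panel, and HSD17B7 has a value in the left panel alone.

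Genes around the pathway were followed through lists of their own. Genes tested were 28 further SREBP targets, 12 of the isoprenoid branch, 8 of LXR and sterol efflux, 13 of sterol storage and transport, and 22 of fatty acid oxidation. In parental cells with the block none of these passed the edgeR test, where 1.67% of all genes did. In the order given, 9, 0, 2, 3 and 3 genes had an unadjusted p under 0.05. These counts have no share of all genes at that unadjusted threshold beside them. The median log2 fold changes of the lists were -0.0044, 0.015, 0.20, -0.083 and 0.073, beside 0.23 for the sterol arm. Among the smallest adjusted p were those of ARL7, an LXR target, at 0.71 ± 0.17 (edgeR adjusted p = 0.0779), and TMEM97, a sterol-responsive membrane protein, at -0.40 ± 0.10 (edgeR adjusted p = 0.0937). In the mutant without VT107 replicate 1, ARL7 and LRP1, a lipoprotein receptor, rose by 0.78 and 0.74 on the log2 scale (edgeR adjusted p = 0.0235 for each), and no other gene of these lists was called.

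Between genotypes in DMSO, 5 of 29 further SREBP targets rose and 2 fell, among them SLC25A1, the citrate carrier, at 1.11 ± 0.16 and TMEM97 at -0.72 ± 0.14 (edgeR adjusted p = 0.00177 and 0.00671). In the isoprenoid branch 3 of 12 rose and 1 fell, led by COQ2 of ubiquinone synthesis at 1.12 ± 0.24 (edgeR adjusted p = 0.00906). Of 8 LXR and efflux genes 4 fell and 0 rose, with a median of -0.57. These were ABCA1, the cholesterol exporter, at -0.77, MYLIP at -1.58, LPCAT3 at -0.69 and ARL7 at -0.73. In storage and transport SCARB1, the HDL receptor, rose by 1.77 ± 0.15, and STARD3, NCEH1 and OSBP fell by 1.83, 0.77 and 1.00 on the log2 scale. Of 22 fatty acid oxidation genes, ECHS1 rose by 0.44 and CPT1C fell by 1.43. Each of these shares stands beside 27.4% of all genes called.

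These counts moved with single libraries. The 4 LXR and efflux genes called became 3, 2 and 4 without parental DMSO replicate 1, 2 or 3, and 1, 2 and 1 without mutant DMSO replicate 1, 2 or 3, and the fit over all 4 H2052 groups called 0. Without parental replicate 3, 7 further SREBP targets rose and 6 fell, and 7 oxidation genes rose and 2 fell. The share of 27.4% comes from the fit with all libraries and is not the share for this one. The number of all genes called also changed with the library left out, as given below. These counts are therefore not read as a result about the lists. Without any 1 of the other 5 libraries, 3 to 5 SREBP targets, 2 isoprenoid genes, 2 or 3 storage and transport genes and 0 or 1 oxidation genes were called in either direction.

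The H226 table could give limited support, since its counts appear to lie on the strand opposite to the genes. In 18 pairs chosen in parental H2052 libraries, in which an abundant gene sits inside a gene of the other strand, the inner gene had more counts in all 18 in NF1 mutant H2052 libraries. As the pairs were chosen in the same line and count table, that outcome was largely fixed by the choice. In H226 the outer gene had more in all 14 pairs with both rows. H226 libraries held 1387223 to 1726786 counts. A member's row may therefore hold reads of an overlapping gene, and among the members called this touches ACAT2, FDPS and FDFT1. INSIG1 had 0 to 9 counts and FASN 0 to 2, too few to test.

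Of 31 members tested in H226, 1 rose and 6 fell under VT107, against 2501 of 12765 genes called (19.6%). The share of members was thus near that of all genes. What the counts of a member without an overlap measure in this table was not tested. HMGCS1, with no gene annotated opposite, had 122, 127 and 103 counts in DMSO and 66, 80 and 89 in VT107, a log2 fold change of -0.80 ± 0.17 (edgeR adjusted p = 0.00157). SC4MOL, also free of an overlap, had 94, 89 and 70 counts against 48, 43 and 67 (-0.89 ± 0.19, edgeR adjusted p = 0.00167). The groups were apart for both. ACLY was lower at 15 to 29 counts against 39 to 43, and ACACB higher at 63 to 93 against 15 to 47. ACAT2, FDPS and FDFT1 also fell. SCD had 24, 16 and 24 counts in DMSO and 14, 13 and 17 in VT107 and did not pass (-0.76 ± 0.33, edgeR adjusted p = 0.109). The sterol median was -0.50 and the fatty acid median -0.24, beside -0.01 over all genes. With genes overlapped on the opposite strand left out, the sterol median was -0.12 over 7 tested genes, of which 2 fell. The 2 tables appear to count different strands, and the difference between the lines was not tested.

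Levels between genes were compared as CPM per kilobase of exon, with exon lengths from GENCODE 29 for 35 members, all but ACACA. In parental DMSO libraries ACAT2 stood highest at 49.9 ± 5.97 CPM per kilobase (SD, n = 3), followed by ACLY at 35.6 ± 1.36. FADS1, HMGCS1, SCD, SQLE, NSDHL and FDPS lay between 22.8 and 25.4 and did not differ from their neighbours in this order beyond their SDs. Among the regulators SCAP was at 10.0 ± 2.30, SREBF1 at 6.85 ± 0.765, SREBF2 at 4.62 ± 0.560, INSIG1 at 3.19 ± 0.928, STARD4 at 1.47 ± 0.520 and INSIG2 at 1.21 ± 0.468 CPM per kilobase. The lowest were ACACB at 0.881 ± 0.0702 and HSD17B7 at 0.274 ± 0.118. In parental VT107 libraries INSIG1 was at 7.02 ± 0.925 and SCD at 42.8 ± 10.8 CPM per kilobase.

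The remaining members were called neither by edgeR without the block on all libraries of an H2052 comparison nor in the blocked parental fit. Other fits of the genotype comparison in DMSO called more members, 19 by voomWithQualityWeights and 17 by edgeR without parental replicate 3, against 10. The number of all genes called changed with the fit as well, as given below. The larger counts are therefore not read as a result about the members. MVK, mevalonate kinase, was at 24.9 to 42.3 CPM in parental DMSO and 44.7 to 49.2 in mutant DMSO libraries (edgeR adjusted p = 0.0673, or 0.0461 with the replicate block), and EBP, the sterol isomerase, at 16.6 to 53.5 against 26.7 to 27.5, the high parental value being replicate 3. IDI1 and FDPS, which make and join the isoprene units, and SQLE, the squalene epoxidase, had estimates of -0.13 to 0.23 between genotypes in DMSO. Under VT107 in parental cells IDI1 was at 0.33 ± 0.14, SQLE at 0.19 ± 0.11 and FDPS at -0.04 ± 0.10 (log2 fold change, SE, block).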

How the data were processed

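RNA-seq of H2052 and H226 cells gave 1 count table per line, with 3 libraries per group. Per the labels the files hold whole-number counts per gene that the authors deposited without normalization; the submitters' processing notes name bcl2fastq 2.20.0.422 and hg19, while for the aligner and the strand setting of the counting a name is not given in the sources read. The H226 table also holds the authors' P-value and FDR columns and their log2 fold change column, which were deposited by the authors and not used. A further 16 siRNA columns matched no described sample and were not used. Rows with a repeated gene identifier, 63 in the H2052 table and 10 in the H226 table, were not counted as further genes.

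The 36 members and all other gene lists were chosen with earlier results of these data known. A gene entered a comparison at 0.5 CPM or above in all of its libraries. Tests used edgeR 4.0.16 (R 4.3.3) with TMM, the quasi-likelihood test and Benjamini-Hochberg over all genes tested, at a threshold of 0.05. The procedure was first tested on simulated data that held no replicate effect and no outlying library. That trial therefore cannot judge the replicate block or the fits with libraries left out. Log2 fold changes were computed here. Alternatives were DESeq2 1.42.0, limma 3.58.1 (voomWithQualityWeights), other scalings and filters, a replicate block, and leaving out libraries. The study calls the libraries biological replicates, and p-values measure the spread between these samples only.

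Replicate numbers come from the labels. Deviations from the group means correlated at 0.613, 0.488 and 0.795 between libraries of the same number for VT107 in parental cells, so these were taken as paired, although replicates 1 and 2 also correlated across numbers (0.517 and 0.607) and only replicate 3 separated; no other comparison met this rule. Values in every library are given for members past the threshold in an H2052 comparison, for INSIG1, INSIG2, SREBF1, SREBF2 and SCAP, and for the extreme members of each arm. Of other lists at most 4 genes were named per comparison. Promoter sequences are RefSeq GRCh38.p14. Some items are not reported here.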

Additional observations from a re-analysis of the deposited data

Results flagged for a closer look

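DHCR7, the last reductase of cholesterol synthesis, had estimates of opposite direction under VT107 in the 2 genotypes. With all libraries it passed the edgeR test in neither genotype, with or without the block. Its interaction estimate was the lowest of the 35 members tested. In parental cells all 3 VT107 libraries lay above all DMSO libraries, and in NF1 mutant cells all 3 lay below. The interaction on the log2 scale was -0.98 (edgeR adjusted p = 1 over 11432 genes), so the difference did not pass adjustment. Without NF1 mutant VT107 replicate 1 it was -0.83, and with the replicate block -1.0 (edgeR adjusted p = 0.953). Groups of 3 libraries were too small to test whether a single library was outlying. The libraries that stood apart were described by their values and left out in further fits, without such a test.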

How the results depend on the processing

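The results on VT107 rest on the replicate block and on single libraries. For VT107 in parental cells, where the fit without a block called 0 genes, DESeq2 called 30 genes and 1 member, voomWithQualityWeights 18 and 1, the replicate block 215 and 4, and voomWithQualityWeights with the block 406 and 4. With the block and without replicate 1, 2 or 3 in turn, 51, 1168 and 27 genes and 1, 8 (7 up, 1 down) and 0 members were called; without the block and replicate 3, 44 genes and 2 members were called. These left-out replicate numbers and the voom fit with the block were chosen after seeing the data, as were DESeq2 and voom without mutant VT107 replicate 1 and the fit without replicate 3 of both genotypes. For VT107 in NF1 mutant cells, where 0 genes were called, DESeq2 called 20 genes, voomWithQualityWeights 147 genes and 1 member with a fatty acid median of 0.23, and 1 fit over 4 groups 3 genes. Leaving out single libraries gave 0 to 198 genes, 0 to 2 members and fatty acid medians of 0.23 to 0.44; without replicate 1, DESeq2 called 211 genes and 2 members (median 0.24) and voomWithQualityWeights 148 and 1 (median 0.21). Between genotypes in DMSO, against 3420 genes and 10 members, voomWithQualityWeights called 6554 and 19 (fatty acid median 0.23), 1 fit over 4 groups 963 and 4, and the fit without replicate 3 of both genotypes 6236 and 18 (median 0.25). Leaving out single libraries gave 1779 to 6409 genes, 4 to 17 members and medians of 0.11 to 0.21. Between genotypes under VT107, against 0 genes, DESeq2 called 682 genes and 2 members, no filter 196 and 1, voomWithQualityWeights 3599 and 10 (sterol median 0.15), and 1 fit over 4 groups 1297 and 3; single libraries left out gave 0 to 184 genes, 0 to 1 members and sterol medians of -0.0043 to 0.32. For the difference of responses the sterol median ranged from -0.15 to 0.086. In H226, 1244 genes and 4 members were called without genes overlapped on the opposite strand, and 1646 to 2218 genes and 6 to 10 members with a library left out. The arm gap by the median gene was 0.52 in parental DMSO, 0.37 in parental VT107 and 0.67 in mutant DMSO cells. No result changed sign past its threshold. The cause of these changes was not tested, and lower depth limits the mutant and H226 values of low genes.

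In the comparisons whose replicate numbers did not pair the libraries, the replicate block called 0 members for VT107 in the mutant, 8 between genotypes in DMSO, 0 under VT107 and 10 in H226. Same-numbered libraries correlated between -0.291 and 0.336 over VT107 in the mutant and both genotype comparisons. In H226 they correlated at 0.22, 0.0099 and 0.031. Not every library correlated best with its own number.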

Other observations

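Between genotypes in DMSO edgeR called 27.4% of all genes, and the share among neighbours of the called members was near it. Of the 20 genes next to the 10 members called there, 6 were called, 2 in the direction of their member and 4 in the opposite one. Those in the same direction were C21orf56, next to LSS, at a log2 fold change of 0.71 (edgeR adjusted p = 0.0195, LSS at 0.84), and RP11-660L16.2, which overlaps DHCR7. SRSF4 and PTPRU, on either side of MECR, were at -1.87 and -1.52 (edgeR adjusted p = 0.00198 and 0.0116), against 2.34 for MECR. CCDC57, next to FASN, was at -1.58 (edgeR adjusted p = 0.031) where FASN was at 1.03, and DUS1L on the other side of FASN was at -0.091 and did not pass (edgeR adjusted p = 0.753). RP11-467L20.6, next to FADS1, was at 0.39 (edgeR adjusted p = 0.0252) where FADS1 was at -0.55. These neighbours were looked at after the values of the members were seen.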
